A study of Mus musculus with 5 samples.

Results

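Immediate early genes and heat shock genes are 2 sets that hold rapidly inducible genes. Of these sets, 34 genes were followed here among the 24860 gene symbols of each library. The 23 early genes encode transcription factors of the AP-1, Egr, Nr4a and Klf families (Fos, Fosb, Jun, Junb, Jund, Egr1, Egr2, Egr3, Nr4a1, Nr4a2, Nr4a3, Klf2, Klf4, Klf6), the stress factor Atf3, the small early-response proteins Ier2, Ier3 and Ier5, and brakes on growth and signalling (Btg1, Btg2, Zfp36, Socs3, Dusp1). The 11 heat shock genes encode the inducible Hsp70 proteins (Hspa1a, Hspa1b), the constitutive Hsc70 (Hspa8), both cytosolic Hsp90 proteins (Hsp90aa1, Hsp90ab1), the Hsp40 and Hsp110 partners of Hsp70 (Dnajb1, Dnaja1, Hsph1), the small heat shock protein Hspb1, and the mitochondrial chaperonin with its lid (Hspd1, Hspe1). All 34 were matched by symbol.

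The study injected the mouse mammary tumour line SSM2 into a left mammary gland of mice aged 10 to 12 weeks, and the cells are from the tumours that formed. At the same operation each mouse received a subcutaneous pellet, releasing over 60 days, that held 60 mg of progesterone in the progesterone group or was a placebo. Tumours were taken 28 to 62 days later, chopped, digested with enzymes at raised temperature in a mechanical dissociator, filtered, cleared of red blood cells and run on the 10x 3′ assay, so all libraries share that handling. The 2 placebo and 3 progesterone libraries fall into 2 batches by their titles: Placebo 1 and Progesterone 1 in batch 1, and Placebo 2, Progesterone 2 and Progesterone 3 in batch 2. Progesterone 2 and 3 carry the same identifier in their file labels, with a left and a right mark. They may thus not be independent animals, and p-values of fits that hold this pair then measure in part a technical spread. In treatment fits with Placebo 2 as the only placebo library, the replicate spread comes from this pair alone. Those p-values may then hold no spread between animals at all.

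Early genes are transcribed within minutes of a signal, without new protein, when kinases activate factors such as SRF, CREB and AP-1 that are already bound near their start sites; most of their messages are short-lived. Heat shock genes are switched on by HSF1, which is released when unfolded proteins occupy the chaperones that hold it, and binds repeated GAA units in promoters. In solid tissue both programmes respond to what cells meet in the body and to warming, shear and enzymes during dissociation, and a count of messages does not separate these sources.

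After filters, 23018 cells were kept. The library labelled Placebo 1 held 4101 T cells and 1 named epithelial cell among 4744, and Progesterone 1 held 53 epithelial cells among 2191. The batch 2 libraries were mostly tumour cells (2868 to 3135 epithelial cells each). Cells without a name held epithelial markers too, summing to 9654.5 CPM in Placebo 1, 7823 in Progesterone 1 and 9656 to 12816 in batch 2. Few named epithelial cells in batch 1 thus do not show that its libraries lacked tumour cells. Total UMIs (counted molecules) were 23409215 and 43194597 in the libraries of batch 1 and 182845008 to 204786073 in those of batch 2, and cells in clusters without a name, nearly all shallow, made up 6.09% of Placebo 1 and 20.8% to 28.6% of the others. Pairs of libraries shared 2 to 12 cell barcodes. Cell classes were named from marker genes, with all members left out of the genes used for clustering, and each stands for cells like that type. Levels are CPM, counts scaled to the same total of UMIs, summed over the cells of a class in a library; 3′ counting marks 1 end of each transcript, so levels of different genes are set side by side without a length term. A summed level cannot tell fewer positive cells from less RNA per cell.

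Promoters of Hspa1a and Hspa1b are printed first because these near-identical neighbours stood far apart in level in tumour cells. Hspa1a lies at chr17:34969190-34972156 and Hspa1b at chr17:34956436-34959238, both protein-coding genes on the minus strand of GRCm38. Both sequences are from RefSeq (GRCm38.p6), run 5′ to 3′ on the gene's strand (chr17:34972107-34972406 for Hspa1a and chr17:34959189-34959488 for Hspa1b) from 250 bases before to 50 bases after the start, and carry in capitals a match to a heat shock element of 2 units.
Hspa1a: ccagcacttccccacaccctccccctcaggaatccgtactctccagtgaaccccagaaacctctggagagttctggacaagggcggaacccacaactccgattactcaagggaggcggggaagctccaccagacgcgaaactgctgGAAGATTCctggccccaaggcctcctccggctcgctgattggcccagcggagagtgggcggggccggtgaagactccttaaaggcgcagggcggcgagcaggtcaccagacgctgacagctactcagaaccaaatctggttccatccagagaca
Hspa1b: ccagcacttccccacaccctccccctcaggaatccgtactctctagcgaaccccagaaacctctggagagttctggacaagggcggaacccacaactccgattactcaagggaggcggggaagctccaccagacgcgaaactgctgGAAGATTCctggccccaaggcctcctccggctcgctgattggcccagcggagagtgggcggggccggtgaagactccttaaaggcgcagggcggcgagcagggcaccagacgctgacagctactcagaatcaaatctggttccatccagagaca
The windows were identical at 296 of 300 positions (98.7%). Counted from position 1 at the 5′ end, with the base of Hspa1a first, the differences were C44T, T47C, T249G and C276T, all outside the capitals.

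Of the 34 members, 28 had a promoter in the RefSeq table, and motifs were searched on both strands of these windows and of all 32851 promoters of the table. The 2-unit heat shock element (GAANNTTC or TTCNNGAA, which overlaps the longer form) was found in 7 of 8 heat shock genes, in 2 of 20 early genes (Egr2 and Jun) and in 15.1% of all promoters. The heat shock element of 3 units was found in Hspd1, Hspe1 and Hsph1, in no early gene and in 0.603% of all promoters. Dnajb1 was the heat shock gene with no match, in either of its windows (chr8:83607925-83608224 and chr8:83608298-83608597). Among early genes the cyclic AMP response element TGACGTCA was found in Btg2 and Dusp1 (1.79% of all promoters), the CArG box bound by SRF in Egr2 and Zfp36 (1.63%), and the AP-1 site TGANTCA in none of 20 (7.81%). A match describes letters and not binding.

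Early genes exceeded heat shock genes in the sum of their levels in most classes, and the balance differed widely between classes. The sums are over 23 early and 11 heat shock genes, so their ratio is not a ratio of levels per gene. In neutrophils the 23 early genes summed to 21941 to 37118 CPM over 3 libraries and the 11 heat shock genes to 2216 to 2777 CPM, a ratio of 9.90 to 14.9. In macrophages the ratio was 2.86 to 3.65 over 4 libraries and in T cells 1.37 to 3.06 over 5. Epithelial cells had the lowest ratio of the named classes, 0.921 to 1.31 over 4 libraries, which overlapped with plasmacytoid dendritic cells (1.125 to 2.15). Their heat shock genes summed to 8470.2 to 10650.0 CPM, above the highest value of any other named class (6970.2 CPM in plasmacytoid dendritic cells). The largest parts of that sum by median were Hsp90ab1 (3455 CPM), the constitutive Hspa8 (1448), Hspb1 (1384.5) and Hsp90aa1 (1187). Hspa1b, Dnajb1 and Hspa1a had medians of 559, 259 and 1.45 CPM there. The ranges of neutrophils and epithelial cells did not overlap with each other or with those of macrophages.

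**Figure D1:**
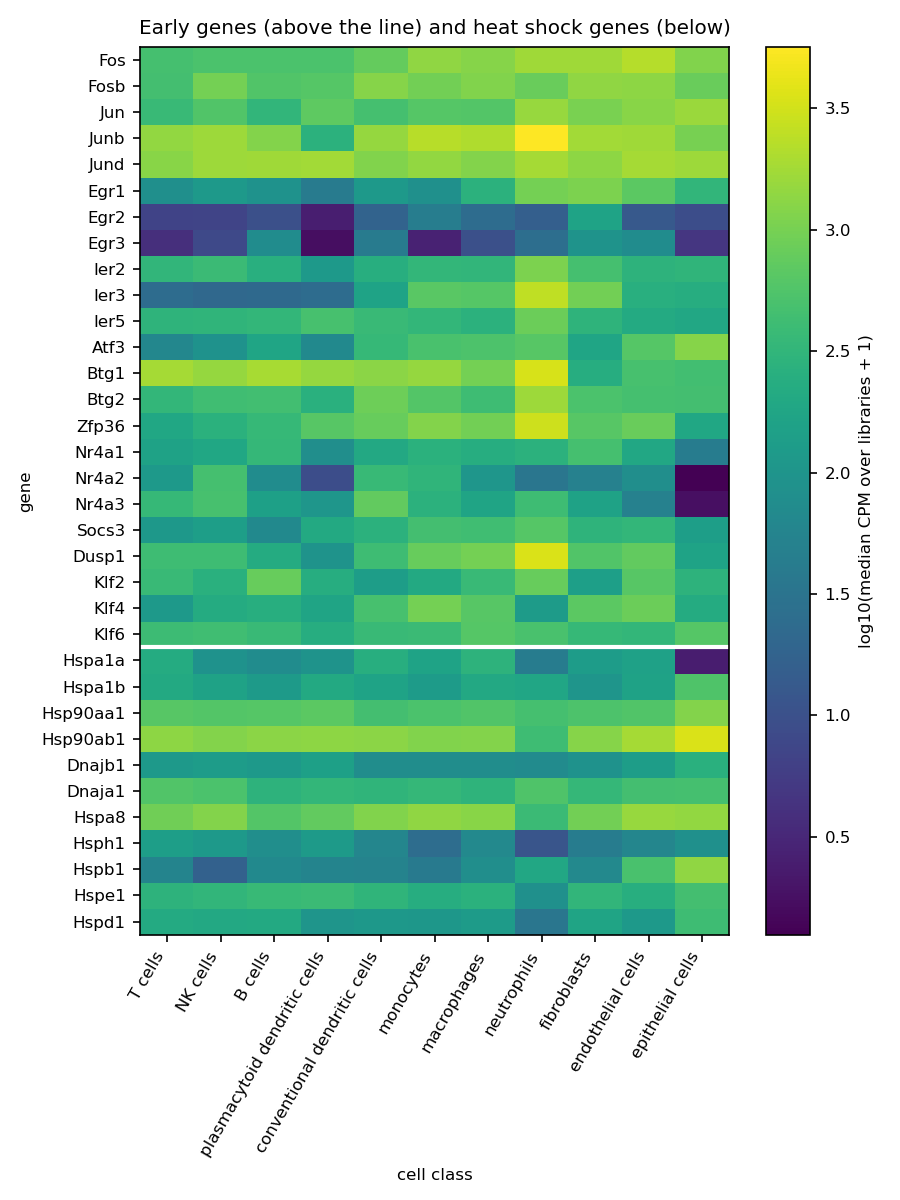
Median level of each member (rows) in each class (columns), taken across libraries holding 10 or more of its cells, as log10 of CPM + 1; early genes stand above the white line and heat shock genes below it. Junb in neutrophils has the highest median (5645 CPM), and Hspa1a, Nr4a2 and Nr4a3 are dark in epithelial cells (medians of 1.45, 0.253 and 0.756 CPM).

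Macrophages held more early gene message than T cells of the same libraries, and few heat shock genes passed between the classes. Beside a background of 45.7% of all 12024 genes that passed between the classes, 18 members passed, and 26.7% of all genes were higher in macrophages and 19% lower. Of 23 early genes 16 were higher and none lower (median log2 ratio over the list 1.20, against 0.06 over all genes tested). Of 11 heat shock genes Hspa8 was higher and Hsph1 lower (median 0.20). Adjusted p-values here and below are from edgeR's quasi-likelihood test on UMIs summed per class and library, with Benjamini-Hochberg adjustment over all genes tested. The steepest were Ier3, which restrains cell death in activated cells (log2 ratio 4.73 ± 0.32 (SE), adjusted p = 1.91e-08), Atf3 (log2 ratio 3.53 ± 0.28 (SE), adjusted p = 6.91e-08) and Klf4, a factor of monocyte maturation (log2 ratio 2.93 ± 0.22 (SE), adjusted p = 3.40e-08). Further genes higher in macrophages were Egr2 (2.58 ± 0.77), Zfp36, which marks inflammatory messages for decay (2.55 ± 0.29), Socs3 (2.44 ± 0.47), Egr1 (2.43 ± 0.30) and Fos (1.93 ± 0.26). Ier3 stood at 926 CPM in Placebo 2 against 652, 552 and 557 in Progesterone 1, 2 and 3 in macrophages and at 4.87 and 22.2 CPM in Placebo 1 and 2 against 32.6, 63.7 and 23.2 in Progesterone 1, 2 and 3 in T cells, and the groups of values did not overlap. With shallow clusters named, 11 members passed, and with UMIs thinned to the lowest total 1 did, where Btg2 and Nr4a1 turned to -0.75 and -2.22.

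The most abundant members were much the same in both classes. In T cells these were the growth brake Btg1 (2027 and 1809 CPM in Placebo 1 and 2 against 2586, 1384 and 1741 in Progesterone 1, 2 and 3), Junb (1019.9 and 1879.7 CPM in Placebo 1 and 2 against 1418, 1448 and 1608 in Progesterone 1, 2 and 3) and Jund (1260.4 and 1918 CPM in Placebo 1 and 2 against 1451, 1243 and 1037 in Progesterone 1, 2 and 3). In Jund and Btg1 the placebo and progesterone values overlapped. Fosb stood at 345 and 459 CPM in Placebo 1 and 2 against 592, 687 and 458 in Progesterone 1, 2 and 3. Fos stood at 473 and 222 CPM in Placebo 1 and 2 against 718, 551 and 319 in Progesterone 1, 2 and 3. Among heat shock genes Hsp90ab1 led (901 and 1361 CPM in Placebo 1 and 2 against 1027, 1529.5 and 1672 in Progesterone 1, 2 and 3), then Hspa8 (671 and 920.2 CPM in Placebo 1 and 2 against 1094, 974 and 765 in Progesterone 1, 2 and 3) and Hsp90aa1 (473 and 569.9 CPM in Placebo 1 and 2 against 624, 819 and 727 in Progesterone 1, 2 and 3).

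In macrophages Fos stood at 1265 CPM in Placebo 2 against 1548, 1198 and 836 in Progesterone 1, 2 and 3. Fosb stood at 1329 CPM in Placebo 2 against 800.4, 1135 and 1175 in Progesterone 1, 2 and 3. Jund, a constitutive AP-1 subunit, stood at 1461 CPM in Placebo 2 against 1192, 1178 and 1059.7 in Progesterone 1, 2 and 3. Btg1 stood at 926 CPM in Placebo 2 against 1625, 999 and 896 in Progesterone 1, 2 and 3. The chaperones that fold newly made proteins were the leading heat shock genes there too. Hspa8 stood at 1227 CPM in Placebo 2 against 1375, 1335 and 1190.4 in Progesterone 1, 2 and 3. Hsp90ab1 stood at 1351 CPM in Placebo 2 against 1074, 1225 and 1120.1 in Progesterone 1, 2 and 3. Hsp90aa1 stood at 616 CPM in Placebo 2 against 874, 527 and 506 in Progesterone 1, 2 and 3.

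Tumour epithelial cells held less early gene message and more heat shock message than macrophages of the same libraries. Beside a background of 65.9% of 13519 genes, 23 members passed: 15 early genes were lower and 1, Jun, higher in epithelial cells (list median -1.52, against 0.12 over all genes). Of the heat shock genes 6 were higher and 1, Hspa1a, lower (list median 0.51), where 35% of all genes were higher and 30.9% lower. Hspb1, a small chaperone of epithelia, was the most raised (log2 ratio 3.64 ± 0.25 (SE), adjusted p = 3.73e-05), with 1342 CPM in Placebo 2 against 934, 1427 and 1492 in Progesterone 1, 2 and 3 in epithelial cells, and Hspd1 (1.25 ± 0.19), Dnajb1 (1.19 ± 0.22) and Hsp90ab1 (1.17 ± 0.14) followed. Nr4a2 and Nr4a3, orphan nuclear receptors, were nearly missing from epithelial cells: 98 UMIs of Nr4a2 (0.212 CPM, 95% exact Poisson interval 0.172 to 0.258, counting error only) and 321 of Nr4a3 (0.693 CPM) over 8990 cells, while their relative Nr4a1 had 22264 (48.0 CPM). In macrophages Nr4a2 stood at 139 CPM in Placebo 2 against 67.9, 83.2 and 123 in Progesterone 1, 2 and 3. Nr4a3 stood at 236 CPM in Placebo 2 against 71.3, 149 and 186 in Progesterone 1, 2 and 3. The most abundant early genes of epithelial cells were Jun (1550.2 CPM in Placebo 2 against 1457, 1684 and 1678 in Progesterone 1, 2 and 3), Jund (1681 CPM in Placebo 2 against 1299, 1587 and 1659 in Progesterone 1, 2 and 3) and Atf3 (1002 CPM in Placebo 2 against 730.0, 1439 and 1413 in Progesterone 1, 2 and 3). Fos stood at 1210.5 CPM in Placebo 2 against 1181, 1085 and 879 in Progesterone 1, 2 and 3. Junb stood at 1037 CPM in Placebo 2 against 601, 1224 and 949 in Progesterone 1, 2 and 3, lowest in Progesterone 1. Hsp90ab1 stood at 3099 CPM in Placebo 2 against 3074, 4102 and 3812 in Progesterone 1, 2 and 3. Hspa8 stood at 1016 CPM in Placebo 2 against 1560.3, 1466 and 1431 in Progesterone 1, 2 and 3.

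Hspa1a, 1 gene of the inducible Hsp70 pair, was almost missing from tumour cells in which its near-identical neighbour Hspa1b was abundant. Over 8990 epithelial cells there were 530 UMIs of Hspa1a (1.14 CPM) and 226691 of Hspa1b (489.2 CPM). In Placebo 2 Hspa1a made up 0.474% of the UMIs of the pair, with an exact binomial 95% interval of 0.416 to 0.539. Progesterone 1 had a share of 0.450% (0.225 to 0.804). The share was 0.240% (0.209 to 0.275) for Progesterone 2, and lowest, 0.0802% (0.0624 to 0.102), for Progesterone 3. In host classes with at least 100 UMIs of the pair its share ran from 27.8% in plasmacytoid dendritic cells of Progesterone 2 to 61.8% in macrophages and monocytes of Progesterone 3, and no interval there came near the epithelial values. Both genes are so alike that reads may not be assigned to 1 of them with certainty by the authors' counting, so the level of either alone is uncertain; the same counting was applied to every class of a library. Within the macrophages and monocytes, the share was lower in Progesterone 1 (44.2% and 42.4%) than in the progesterone libraries of batch 2 (56.8% to 61.8%).

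**Figure D2:**
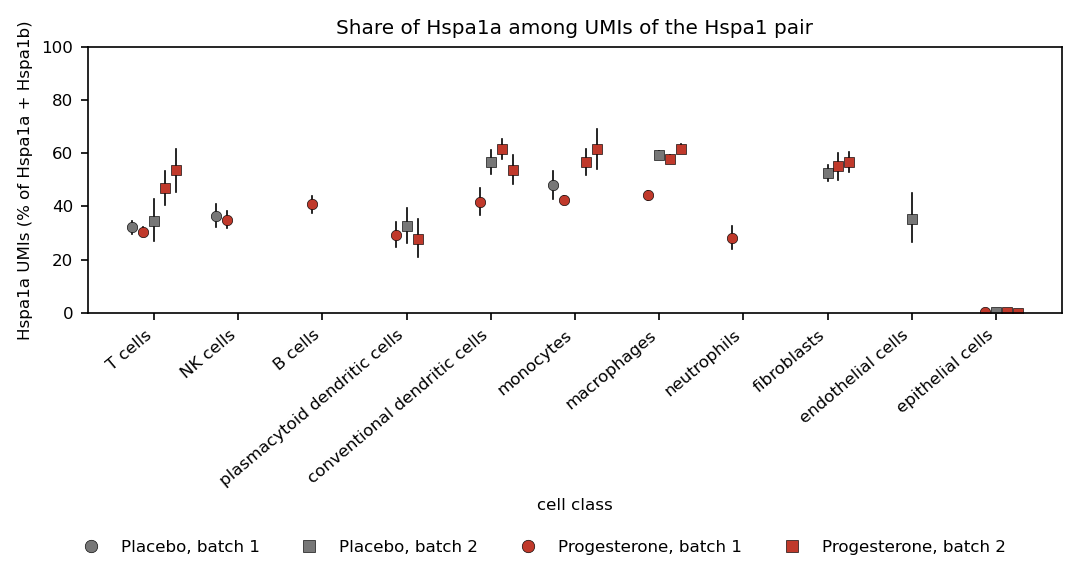
UMIs of Hspa1a as a percentage of those of Hspa1a and Hspa1b together, by cell class, for each library with at least 100 UMIs of the pair; vertical lines are exact binomial 95% intervals, grey is placebo, red progesterone, circles batch 1 and squares batch 2. Host classes lie between 27.8% and 61.8%, and all 4 epithelial points lie under 0.5%.

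The first treatment question was whether lymphocytes of progesterone and placebo tumours differed in these genes. B cells did: 8 of 33 members tested were higher with progesterone and none lower, beside 0.692% of all 7515 genes (0.585% higher and 0.106% lower). The 8 were Hspa1a, Hspa1b, Hsph1, Dnajb1, Hspa8, Atf3, Egr1 and Jun. The list median was 1.39 on the log2 scale for the 11 heat shock genes and 0.67 for the 22 early genes tested, against -0.01 over all genes. The fit used 4 libraries with batch as a term (162, 57, 215 and 14 cells in Placebo 1, Placebo 2, Progesterone 1 and Progesterone 2) and left 1 residual degree of freedom. Without the batch term 4 of these 8 passed, and with all libraries thinned to the lowest total none did; leaving out a library left no residual degree of freedom.

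Hspa1a in B cells stood at 1.46 and 0 CPM in Placebo 1 and 2 against 146 and 384 in Progesterone 1 and 2 (adjusted p = 2.96e-07). Both placebo libraries were near the floor, with 2 UMIs in Placebo 1 and 0 in Placebo 2, which allows up to 9.52 CPM at the limit of 3 counts. In batch 1 the ratio of rates was 99.9 (exact 95% interval 27.5 to 828.1, counting error only), and in batch 2 the level was at least 40.3-fold higher in Progesterone 2. Hspa1b stood at 6.56 and 31.7 CPM in Placebo 1 and 2 against 211 and 251 in Progesterone 1 and 2 (log2 ratio 4.04 ± 0.46 (SE), adjusted p = 3.89e-05). Hsph1, the exchange factor of Hsp70, stood at 54.7 and 25.4 CPM in Placebo 1 and 2 against 255 and 106 in Progesterone 1 and 2 (log2 ratio 2.24 ± 0.38 (SE), adjusted p = 0.00309). Dnajb1 stood at 36.5 and 76.2 CPM in Placebo 1 and 2 against 155 and 185 in Progesterone 1 and 2 (log2 ratio 1.85 ± 0.37 (SE), adjusted p = 0.013). In each of these 4 genes both progesterone libraries lay above both placebo libraries. The share of all genes that separated in this way was not counted.

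Hspa8 in B cells stood at 301 and 403 CPM in Placebo 1 and 2 against 794 and 913 in Progesterone 1 and 2 (log2 ratio 1.39 ± 0.27 (SE), adjusted p = 0.0101). Among early genes Jun stood at 181 and 146 CPM in Placebo 1 and 2 against 457 and 648 in Progesterone 1 and 2 (log2 ratio 1.76 ± 0.31 (SE), adjusted p = 0.00416). Atf3, a stress-induced repressor, stood at 19.7 and 95.2 CPM in Placebo 1 and 2 against 259 and 251 in Progesterone 1 and 2 (log2 ratio 2.76 ± 0.48 (SE), adjusted p = 0.013). In all 3 genes the groups did not overlap, again with no share of all genes counted beside it. Egr1 stood at 75.1 and 66.7 CPM in Placebo 1 and 2 against 518 and 106 in Progesterone 1 and 2 (log2 ratio 2.23 ± 0.43 (SE), adjusted p = 0.013), and its difference lay mostly in batch 1. Of 31 other early genes tested, 1 rose in B cells, Myc (log2 ratio 2.37 ± 0.45), and of 35 other chaperone genes none passed. Keratin and Epcam message in B cells, a measure of free tumour RNA, summed to 16.8 and 1660.3 CPM in Placebo 1 and 2 and to 77.6 and 1482 CPM in Progesterone 1 and 2. Of the genes called in B cells, epithelial cells held Hspa1a at 0.461 to 4.23 CPM, below its level in B cells of either progesterone library, but Jun at 1457 to 1684, Hspa8 at 1016 to 1560.3, Atf3 at 730.0 to 1439 and Hspa1b at 335 to 935 CPM, above those of B cells; the ranges of Hsph1, Dnajb1 and Egr1 overlapped between the classes. Macrophage markers in B cells summed to 143 and 260.3 CPM in Placebo 1 and 2 and to 490.4 and 595 CPM in Progesterone 1 and 2, without overlap and with 0 to 4 of 10 markers at 0, against 19276 CPM or more in macrophages. Monocyte markers there summed to 513 and 660.3 CPM with placebo and to 683 and 1072 CPM with progesterone, with 1 to 6 of 8 at 0. The part of RNA from these cells in the 8 calls was not tested.

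T cells gave values of the same kind that did not pass. No member passed with progesterone at an adjusted p of 0.05, beside 1 of 7791 genes (0.0128%). Of all genes 704 had an unadjusted p under that value, DESeq2 called 49 genes and 3 members (Hspa1a, Hspa1b and Hspb1), and without the filter on low counts 6 members passed. All 11 heat shock genes had a log2 ratio above 0 (list median 0.34), and so did 11 of 21 early genes tested (median 0.19). Hspa1a stood at 13.5 and 66.7 CPM in Placebo 1 and 2 against 221, 533 and 240.5 in Progesterone 1, 2 and 3 (log2 ratio 3.15 ± 0.52 (SE), adjusted p = 0.252). Hspa1b stood at 28.5 and 125 CPM in Placebo 1 and 2 against 505, 605 and 209 in Progesterone 1, 2 and 3 (log2 ratio 2.69 ± 0.85 (SE), adjusted p = 0.519). Hsph1 stood at 77.8 and 90.2 CPM in Placebo 1 and 2 against 253, 241 and 139 in Progesterone 1, 2 and 3 (log2 ratio 1.29 ± 0.30 (SE), adjusted p = 0.28). The Hsp40 Dnajb1 stood at 75.6 and 86.3 CPM in Placebo 1 and 2 against 198, 205 and 119 in Progesterone 1, 2 and 3 (log2 ratio 1.05 ± 0.29 (SE), adjusted p = 0.34). In all 4 genes the progesterone libraries lay above the placebo libraries, without overlap. The share of all genes that separated in this way was not counted, so the 4 have no background. Among other heat shock genes the values of Hspa8, Hsp90ab1 and Hspb1 overlapped, and those of Hsp90aa1 did not. Left out in turn, Placebo 2 had the largest effect: without it 7 members passed, among them Hspa1a (log2 ratio 3.85), Hspa1b (3.98), Hsph1 (1.54), Atf3 (2.58) and Ier3 (2.54). Within batch 2 alone the log2 ratios were 2.40 for Hspa1a and 1.61 for Hspa1b, with Placebo 2 as the only placebo library. Without Placebo 1 they were 2.44 and 1.62. The batch term then takes up Progesterone 1, so that setting has the same contrast and is no separate check.

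T cell makeup differed between libraries beside these values. Markers of naive T cells summed to 4793 and 1676 CPM in Placebo 1 and 2 and to 2722, 1907 and 1019.9 CPM in Progesterone 1, 2 and 3. The cluster led by Ctla4 and Icos held 410 of 4101 and 85 of 126 T cells of the placebo libraries, and 227 of 448, 37 of 45 and 64 of 66 of the progesterone libraries. Within that cluster Hspa1a stood at 62.8 and 89.7 CPM in Placebo 1 and 2 against 193, 584 and 249 in Progesterone 1, 2 and 3, and in the other T cell clusters at 7.72 and 9.14 CPM in Placebo 1 and 2 against 249.7 in Progesterone 1. Both parts of the T cells were higher with progesterone in batch 1, by value. The cluster alone gave no member that passed. Hspb1 in T cells stood at 0.651 and 54.9 CPM in Placebo 1 and 2 against 9.01, 168 and 119 in Progesterone 1, 2 and 3, and epithelial cells held it at 934 to 1492 CPM. Free tumour keratin and Epcam message in T cells was 6.51 and 1072 CPM in the placebo libraries and 71.8, 1666 and 1017 CPM in the progesterone libraries. The part of that RNA in the values of Hspb1 was not tested. For Hspa1a the epithelial level was at most 4.23 CPM. Macrophage markers in T cells summed to 12.4 and 103 CPM with placebo and to 131, 178 and 95.6 CPM with progesterone, so that those values overlapped.

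For Hspa1b the share of T cells with a UMI put the libraries in the same order as its level. With every cell thinned to 3000 UMIs, Hspa1b was detected in 2.90% of 4002 and 11.8% of 102 T cells in the placebo libraries, and in 28.1% of 398, 56.3% of 32 and 14.9% of 47 in Progesterone 1, 2 and 3. No class lacked Hspa1b, so these shares have no background share beside them; epithelial cells held it at 335 to 935 CPM, and free tumour RNA in T cells was higher in batch 2, as given above. Its part in the shares was not tested. The exact binomial 95% intervals of Placebo 2 (6.23 to 19.7) and Progesterone 3 (6.20 to 28.3) overlapped. Without thinning the shares were 6.24% and 15.9% with placebo and 41.7%, 57.8% and 19.7% with progesterone. Hspa1a was detected in 1.57% and 3.92% of thinned T cells with placebo and in 18.6%, 37.5% and 8.51% with progesterone. Without thinning these were 2.93%, 6.35%, 26.8%, 35.6% and 7.58%. In epithelial cells of batch 2 it was detected in 0.224% to 0.385% of thinned cells and 1.28% to 3.63% without thinning, although these cells were deeper (median 37653 to 49922 UMIs before thinning, against 4323 to 8439 in T cells). Natural killer cells had 10 or more cells in 3 libraries, which left no residual degree of freedom for a test. They held Hspa1a at 91.6 and 0 CPM in Placebo 1 and 2 against 175 in Progesterone 1, where the 0 of Placebo 2 allows up to 17.3 CPM, and Hspa1b at 159.9 and 17.3 CPM in Placebo 1 and 2 against 323 in Progesterone 1.

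**Figure D3:**
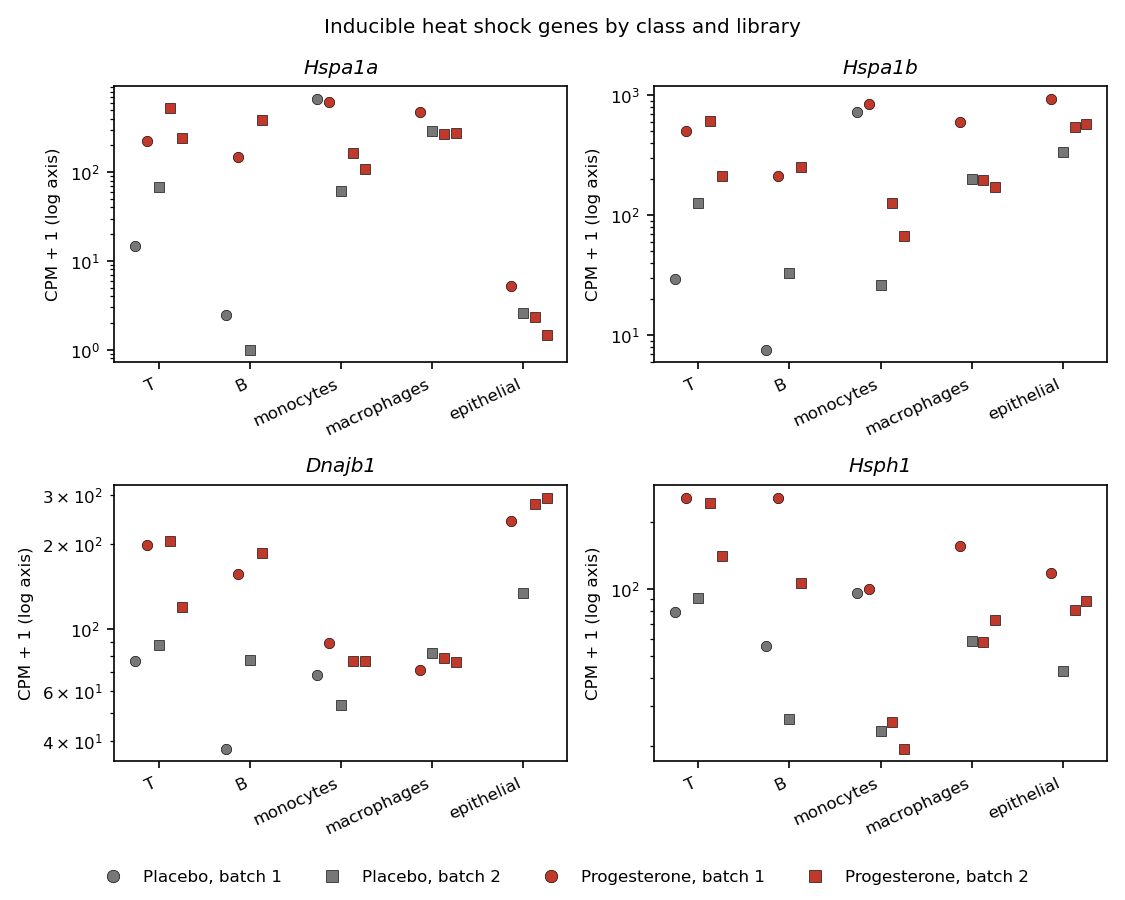
Level (CPM + 1, log axis) of 4 inducible heat shock genes in 5 cell classes, 1 point per library with at least 10 cells; grey is placebo, red progesterone, circles batch 1 and squares batch 2. In T and B cells the red points lie above the grey ones in all 4 panels, in macrophages they do not, and Hspa1a in epithelial cells lies at or under 4.23 CPM.

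In monocytes no member passed with progesterone by edgeR or by DESeq2. By edgeR 2 of 7962 genes passed (0.0251%), and 503 genes had an unadjusted p under 0.05. Hspa1a stood at 674 and 60.6 CPM in Placebo 1 and 2 against 615, 163 and 107 in Progesterone 1, 2 and 3. The larger differences lay between batches: with batch as the contrast and treatment as a term, 8 members passed, beside 6.39% of all genes (2.62% higher in batch 2 and 3.77% lower). Hspa1b (log2 ratio -3.66 ± 0.46 (SE), adjusted p = 0.00752), Hspa1a (-2.62 ± 0.34), Hsph1 (-2.01 ± 0.26), Atf3 (-1.88 ± 0.32) and Klf2 (-1.29 ± 0.27) were lower in batch 2, and Nr4a3 (1.68 ± 0.23), Ier3 (0.74 ± 0.20) and Junb (0.67 ± 0.17) higher. Hspa1b stood at 725 and 24.9 CPM in Placebo 1 and 2 against 834, 124 and 65.8 in Progesterone 1, 2 and 3, so both batch 1 libraries lay above all 3 of batch 2. The class was made up differently in the batches: its monocyte markers summed to 7241 and 4044 CPM in Placebo 1 and Progesterone 1 and to 2739, 1594 and 1268 CPM in Placebo 2, Progesterone 2 and Progesterone 3, and its macrophage markers to 4376 and 3533 CPM and to 6802, 8859 and 8391 CPM. Placebo 1 held 13 monocytes. The part of this makeup in the batch difference was not tested. Without Progesterone 1, or without Progesterone 3, 5 members passed, and with thinned sums none did.

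In macrophages early genes were lower with progesterone, in a comparison that rests on 1 placebo library. Placebo 1 held 3 macrophages and was left out, so that the batch term took up Progesterone 1 and the contrast set Placebo 2 (519 cells) against Progesterone 2 and 3 (843 and 501 cells). The fit left 1 residual degree of freedom, which is the spread between Progesterone 2 and 3. Beside 19.6% of 12351 genes (9.15% higher and 10.4% lower), 14 members passed. Of 23 early genes 12 fell and Socs3 rose (list median -0.41, against 0.01 over all genes). Of the heat shock genes Hspd1 fell and 10 did not pass (list median -0.10). The calls depended on the setting: none passed without the batch term, with monocytes counted as macrophages or with shallow clusters named, and DESeq2 called 9. With shallow clusters named, 6 of the 12 early genes that fell had a log2 ratio above 0: Dusp1 (0.63), Zfp36 (0.38), Klf6 (0.30), Junb (0.19), Ier3 (0.041) and Nr4a1 (0.033). With monocytes counted in, Dusp1 was at 0.17. Leaving out Progesterone 1 keeps the same contrast, as the batch term takes up that library, so that setting is no check of these calls.

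Egr2 and Egr1 fell most. Egr2, a factor of macrophage activation, stood at 101 CPM in Placebo 2 against 20.4, 25.2 and 22.0 in Progesterone 1, 2 and 3 (log2 ratio -2.05 ± 0.17 (SE), adjusted p = 1.97e-29). Egr1 stood at 587 CPM in Placebo 2 against 318, 231 and 227 in Progesterone 1, 2 and 3 (log2 ratio -1.33 ± 0.15 (SE), adjusted p = 2.13e-17). Egr3 stood at 17.7 CPM in Placebo 2 against 4.81, 9.07 and 8.26 in Progesterone 1, 2 and 3 (log2 ratio -0.98 ± 0.25 (SE), adjusted p = 0.00111). In all 3 genes Placebo 2 lay above every progesterone library, that of batch 1 included. The genes were called on Placebo 2 against Progesterone 2 and 3, so that order follows in part from the call. Progesterone 1 is of the other batch, and no share of all genes ordered this way was counted. Klf4 stood at 1052 CPM in Placebo 2 against 808, 463 and 428 in Progesterone 1, 2 and 3 (log2 ratio -1.22 ± 0.14 (SE), adjusted p = 4.26e-15). Klf6 stood at 745 CPM in Placebo 2 against 961, 501 and 432 in Progesterone 1, 2 and 3 (-0.65 ± 0.15); the level of Klf6 in Progesterone 1 was above that of Placebo 2.

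Nr4a1, which limits inflammatory output of macrophages, stood at 363 CPM in Placebo 2 against 228, 244 and 173 in Progesterone 1, 2 and 3 (log2 ratio -0.77 ± 0.15 (SE), adjusted p = 8.90e-06). The log2 ratios of Nr4a3 and Nr4a2, whose levels are given above, were -0.48 ± 0.15 and -0.41 ± 0.16. Ier3 stood at 926 CPM in Placebo 2 against 652, 552 and 557 in Progesterone 1, 2 and 3 (log2 ratio -0.72 ± 0.15 (SE), adjusted p = 2.08e-05). Junb stood at 2996 CPM in Placebo 2 against 1346, 2043 and 2033 in Progesterone 1, 2 and 3 (log2 ratio -0.53 ± 0.15 (SE), adjusted p = 0.00298). Placebo 2 was the highest library in these genes, again with no share of all genes counted beside it. Zfp36 stood at 1242 CPM in Placebo 2 against 1042, 868 and 711 in Progesterone 1, 2 and 3 (-0.63 ± 0.15). Dusp1, a phosphatase that ends MAP kinase signals, stood at 1109 CPM in Placebo 2 against 1067, 888 and 701 in Progesterone 1, 2 and 3 (-0.46 ± 0.15). Socs3, a brake on cytokine receptors, stood at 355 CPM in Placebo 2 against 335, 499 and 516 in Progesterone 1, 2 and 3 (log2 ratio 0.54 ± 0.15 (SE), adjusted p = 0.00445). Hspd1 stood at 206 CPM in Placebo 2 against 127, 125 and 107 in Progesterone 1, 2 and 3 (log2 ratio -0.80 ± 0.15 (SE), adjusted p = 4.95e-06). The inducible Hsp70 genes did not pass. Hspa1a stood at 293 CPM in Placebo 2 against 475, 270.4 and 277 in Progesterone 1, 2 and 3 (-0.08 ± 0.15). Hspa1b stood at 200.2 CPM in Placebo 2 against 601, 196 and 171 in Progesterone 1, 2 and 3 (-0.10 ± 0.16).

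**Figure D4:**
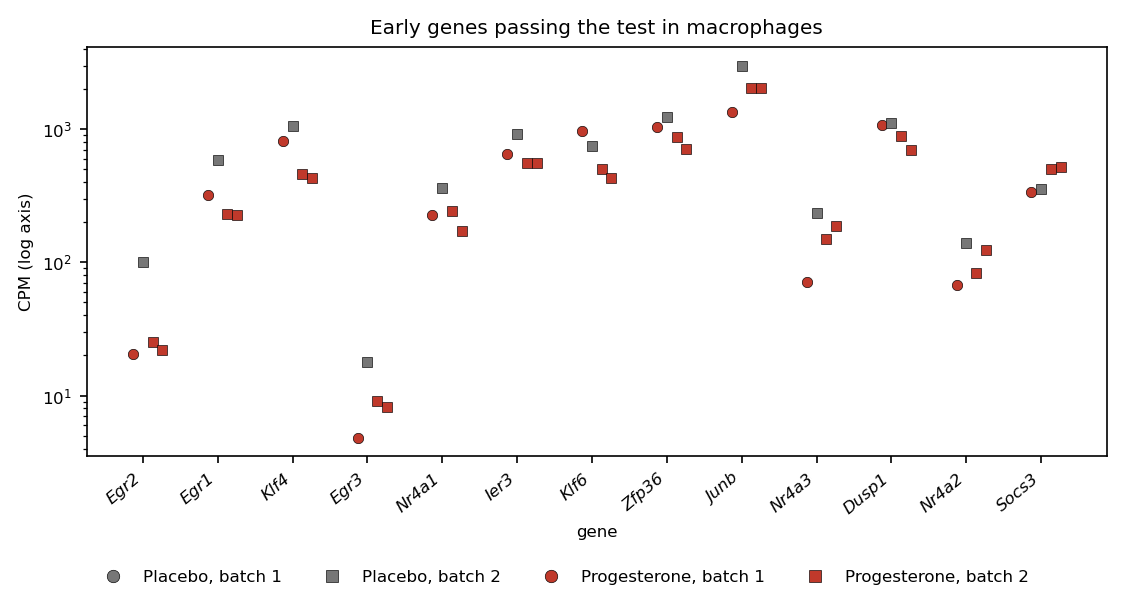
Level (CPM, log axis) in macrophages of the 13 early genes that passed with progesterone, ordered by log2 ratio, 1 point per library; grey is placebo, red progesterone, circles batch 1 and squares batch 2. Placebo 2 lies above both batch 2 progesterone libraries in every gene but Socs3, and the batch 1 point lies among them or beyond (Klf6, 961 CPM).

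The macrophage class was made up differently in the libraries. A cluster led by Retnla, Ccl6 and Mrc1 held 294 of 519 macrophages in Placebo 2 but 76 of 843 and 57 of 501 in Progesterone 2 and 3, where a cluster led by Apoe, Ms4a7 and Trem2 held most (730 and 425 cells, 222 in Placebo 2). Within the Apoe cluster Egr1 stood at 652 CPM in Placebo 2 against 334, 227 and 212 in Progesterone 1, 2 and 3 and within the Retnla cluster at 546 CPM in Placebo 2 against 222 and 207 in Progesterone 2 and 3. Egr2 stood at 103 CPM in Placebo 2 against 18.4, 22.4 and 16.6 in Progesterone 1, 2 and 3 within the Apoe cluster and at 101 CPM in Placebo 2 against 69.6 and 56.6 in Progesterone 2 and 3 within the Retnla cluster. Both genes thus lay lower in Progesterone 2 and 3 in either cluster. Of the 12 early genes that fell in the class, 11 lay lower in both libraries in the Apoe cluster (all but Nr4a2) and 9 in the Retnla cluster (all but Nr4a2, Nr4a3 and Dusp1). Nr4a2 lay below Placebo 2 in Progesterone 2 and above it in Progesterone 3 in the Apoe cluster, and stood at 166 CPM in Placebo 2 against 162 and 258 in Progesterone 2 and 3 within the Retnla cluster. Socs3, which rose in the class, lay higher in both in the Apoe cluster and went both ways in the Retnla cluster, with 305 CPM in Placebo 2 against 359 and 261 in Progesterone 2 and 3. There Nr4a3 stood at 267 CPM in Placebo 2 against 275 and 347 in Progesterone 2 and 3. Dusp1 stood at 1250.4 CPM in Placebo 2 against 1462 and 967 in Progesterone 2 and 3. Hspa1a, which did not pass in the class, stood at 503 CPM in Placebo 2 against 488, 303 and 290.1 in Progesterone 1, 2 and 3 within the Apoe cluster and at 155 CPM in Placebo 2 against 158 and 174 in Progesterone 2 and 3 within the Retnla cluster. These values within clusters were not tested, and no share of all genes that lay lower in both libraries was counted. The clusters hold the cells from which the genes were called, so agreement within them follows in part from that choice. Monocyte markers in macrophages summed to 902, 679, 246 and 324 CPM in Progesterone 1, Placebo 2, Progesterone 2 and Progesterone 3. Their part in the result was not tested.

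Of the other genes of the same programmes in macrophages more fell than rose by count, where 10.4% of all genes fell and 9.15% rose. Of 36 other early genes tested 8 fell and 3 rose (median -0.16), with Klf9 (-0.86) and Nfkbid (-0.82) among those that fell and Cyr61 (1.65) and Dusp5 (0.61) among those that rose. Of 40 other chaperone genes 9 fell and 2 rose (median -0.19), with Hspa9 (-0.90), Ptges3 (-0.67) and Cct3 (-0.57) lower and Dnajb2 (0.68) higher.

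The difference between the classes was tested directly. In 4 libraries with both classes, the progesterone effect in macrophages minus that in T cells passed for 3 members, beside 0.519% of 12911 genes (0.372% higher and 0.147% lower). These were Egr2 (log2 ratio -6.25 ± 1.47 (SE), adjusted p = 0.00925), Hspa1a (log2 ratio -2.34 ± 0.40 (SE), adjusted p = 7.87e-06) and Hspa1b (log2 ratio -1.48 ± 0.38 (SE), adjusted p = 0.0294). Of 11 heat shock genes, 9 had a difference under 0 (list median -0.68), against 12 of 23 early genes (median -0.07) and a median of 0.09 over all genes. Egr2 in T cells of these 4 libraries rests on 0 UMIs in Placebo 2 and 30, 4 and 2 in Progesterone 1, 2 and 3, so its fitted value depends on the prior count. No member passed this test with DESeq2 or with thinned sums, and 1 passed with shallow clusters named. For monocytes minus T cells, over all 5 libraries, Ier3 passed (log2 ratio -2.05 ± 0.40 (SE), adjusted p = 0.0256), beside 0.389% of 9517 genes (0.0525% higher and 0.336% lower), and all 11 heat shock genes had a difference under 0 (median -0.26, against 0.11 over all genes). That call was lost with DESeq2, with thinned sums, with members kept in clustering and without Placebo 1, Progesterone 1 or Progesterone 2. In T cells Ier3 rests on 172 and 17 UMIs in Placebo 1 and 2 against 134, 14 and 8 in Progesterone 1, 2 and 3. In monocytes Ier3 stood at 598 and 1054 CPM in Placebo 1 and 2 against 499, 839.9 and 656 in Progesterone 1, 2 and 3.

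Members differed between batches too. In T cells, with treatment as a term, 5 members passed between batches, beside 16.5% of all genes (8.6% higher in batch 2 and 7.86% lower). Fos (-1.10 ± 0.27), Jun (-0.81 ± 0.21), Klf2 (log2 ratio -1.67 ± 0.28 (SE), adjusted p = 0.0138) and Klf6 (-0.93 ± 0.21) were lower in batch 2 and Hspb1 higher (4.57 ± 0.57). With thinned sums none passed and Klf6 turned to 0.30. Klf2, a factor of naive T cells, stood at 745 and 376 CPM in Placebo 1 and 2 against 682, 246 and 142 in Progesterone 1, 2 and 3. In macrophages 20 members passed between batches, beside 30.6% of all genes (15.6% higher in batch 2 and 15% lower). Of the early genes 6 were higher in batch 2 and 9 lower, and 5 heat shock genes were lower (Hspb1, Hspa1a, Hsp90aa1, Hsph1 and Hspa1b, at -0.53, -0.77, -0.74, -1.24 and -1.69). Among early genes Nr4a3 was the most raised (1.25 ± 0.18) and Atf3 and Klf6 the most lowered (-1.03 ± 0.15 and -1.02 ± 0.15). Batch 1 contributes 1 macrophage library, Progesterone 1. With shallow clusters named none passed, and 8 of the lower genes turned above 0 (Dusp1 0.72, Egr1 0.63, Zfp36 0.59, Hspb1 0.55, Fos 0.51, Hspa1a 0.38, Klf4 0.11 and Klf6 0.0014). With monocytes counted in 2 passed, and Egr1, Hspb1 and Dusp1 turned to 0.94, 0.68 and 0.21. Rbm3, 1 of 2 listed genes induced by cold, was higher in batch 2 in T cells (log2 ratio 1.10), monocytes (0.98) and macrophages (0.74). In T cells the 2 genes summed to 446 and 418.5 CPM in Placebo 1 and Progesterone 1 and to 872 to 997 CPM in batch 2. The source of this difference was not tested.

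Tumour epithelial cells differed in a large part of all genes, and the members were called at close to that background. Of 34 members 17 passed, 10 higher and 7 lower, where 48.8% of all 16367 genes passed (23.8% higher and 25.1% lower). Placebo 1 had 1 named epithelial cell, so this contrast too sets Placebo 2 against Progesterone 2 and 3. Its 1 residual degree of freedom is again the spread between those progesterone libraries. Heat shock genes rose in 5 of 11 and fell in none (list median 0.21, against 0.01 over all genes), and early genes rose in 5 and fell in 7 of 23 (median -0.12). Without the batch term 1 member passed, as with shallow clusters named, and with thinned sums none did. Atf3 and Fos turned to -0.27 and 0.30 with shallow clusters named, and Egr1 and Nr4a1 to 0.91 and -0.44 with thinned sums. Placebo 2 held its epithelial cells mostly in clusters led by Fmo2 and Ereg, and the progesterone libraries in clusters led by Wnt4, Kalrn, Ndrg1 and Ube2c.

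The heat shock genes that rose were Hsp70 and its partners. Dnajb1 stood at 133 CPM in Placebo 2 against 241, 278 and 292 in Progesterone 1, 2 and 3 (log2 ratio 0.95 ± 0.11 (SE), adjusted p = 7.06e-06). Hsph1 stood at 41.9 CPM in Placebo 2 against 117, 79.3 and 87.7 in Progesterone 1, 2 and 3 (log2 ratio 0.85 ± 0.09 (SE), adjusted p = 7.62e-06). Hspa1b stood at 335 CPM in Placebo 2 against 935, 544 and 574 in Progesterone 1, 2 and 3 (log2 ratio 0.60 ± 0.11 (SE), adjusted p = 0.000629). In each, Placebo 2 was the lowest library. That order follows in part from the call, and no share of all genes was counted beside it. Hspa8 (0.37 ± 0.12) and Dnaja1, at 399 CPM in Placebo 2 against 407, 570.1 and 550.4 in Progesterone 1, 2 and 3 (0.35 ± 0.11), rose less. Hsp90aa1 (-0.24 ± 0.11), Hspb1 (-0.02 ± 0.12), Hspe1 (-0.02 ± 0.11) and Hspd1 (0.04 ± 0.12) did not pass. Hspa1a stood at 1.59 CPM in Placebo 2 against 4.23, 1.31 and 0.461 in Progesterone 1, 2 and 3.

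Among early genes of epithelial cells, Ier3 fell most, with 441 CPM in Placebo 2 against 216, 252 and 202 in Progesterone 1, 2 and 3 (log2 ratio -1.10 ± 0.14 (SE), adjusted p = 0.000361). Socs3 stood at 212 CPM in Placebo 2 against 136, 137 and 142 in Progesterone 1, 2 and 3 (log2 ratio -0.75 ± 0.09 (SE), adjusted p = 1.96e-05). Egr1 stood at 425 CPM in Placebo 2 against 199, 328 and 298 in Progesterone 1, 2 and 3 (log2 ratio -0.59 ± 0.11 (SE), adjusted p = 0.00057). Placebo 2 was the highest library in these 3, with no share of all genes counted beside it. Smaller falls were those of Fos (-0.45 ± 0.14), Egr2 (-0.41 ± 0.12), Btg1 (-0.34 ± 0.11) and Ier5 (-0.33 ± 0.10). Egr2 stood at 9.62 CPM in Placebo 2 against 0.769, 7.60 and 8.45 in Progesterone 1, 2 and 3. Btg1 stood at 492 CPM in Placebo 2 against 449, 445 and 415 in Progesterone 1, 2 and 3. Ier5 stood at 217 CPM in Placebo 2 against 65.7, 193 and 189.6 in Progesterone 1, 2 and 3. In Egr2 and Ier5 Progesterone 1 was far below the batch 2 libraries. Egr3 rose, with 1.44 CPM in Placebo 2 against 4.23, 4.57 and 3.19 in Progesterone 1, 2 and 3 (log2 ratio 1.28 ± 0.25 (SE), adjusted p = 0.00299). Nr4a1 rose, with 33.6 CPM in Placebo 2 against 33.8, 59.3 and 50.3 in Progesterone 1, 2 and 3 (0.56 ± 0.12). Ier2 rose, with 238 CPM in Placebo 2 against 213, 389 and 367 in Progesterone 1, 2 and 3 (0.52 ± 0.11). In these 3 both batch 2 progesterone libraries lay above Placebo 2, the libraries on which the genes were called. Btg2, at 339.5 CPM in Placebo 2 against 459.8, 523 and 461 in Progesterone 1, 2 and 3 (0.39 ± 0.12), and Atf3 (0.36 ± 0.12) rose as well. Directions within the Egr family thus differed, with Egr1 and Egr2 lower and Egr3, at under 5 CPM, higher.

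Of 37 other early genes tested in epithelial cells 13 rose and 9 fell, led by Arc (log2 ratio 3.36), Cyr61 (2.76), Tnfaip3 (2.25) and Egr4 (2.04). Of 40 other chaperone genes 5 rose and 11 fell; Hsf2 (0.96) rose, and Ubb (-0.90), Hspa13 (-0.77) and Hspa9 (-0.57) fell. The median of the chaperone list was -0.11, and its count of genes that fell was close to the 25.1% of all genes that did, while 23.8% of all genes rose.

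Fibroblasts, fitted on batch 2 alone (291, 52 and 103 cells in Placebo 2, Progesterone 2 and Progesterone 3), had 5 of 34 members higher and none lower, beside 3.67% of 11242 genes (2.28% higher and 1.4% lower). Hspa1a stood at 70.2 CPM in Placebo 2 against 129 and 133 in Progesterone 2 and 3 (log2 ratio 1.09 ± 0.19 (SE), adjusted p = 0.0126). Hspa1b stood at 63.7 CPM in Placebo 2 against 105 and 101 in Progesterone 2 and 3 (log2 ratio 0.89 ± 0.19 (SE), adjusted p = 0.0344). Both lay higher in each progesterone library, with no share of all genes counted beside it. The fibroblast fit left 1 residual degree of freedom, the spread between Progesterone 2 and 3. Among early genes Ier3 stood at 647 CPM in Placebo 2 against 1117 and 942 in Progesterone 2 and 3 (0.86 ± 0.18). Atf3 stood at 118 CPM in Placebo 2 against 216 and 173 in Progesterone 2 and 3 (0.90 ± 0.19). Socs3 stood at 192 CPM in Placebo 2 against 292 and 294 in Progesterone 2 and 3 (0.81 ± 0.18). Of 36 other early genes 5 rose, among them Egr4 (2.66), Tnfaip3 (1.53) and Nfkbia (1.31), and Dusp6 fell (-0.97); of 39 other chaperone genes none passed. DESeq2 called 2 of the 5.

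In dendritic cells early genes passed and no heat shock gene did, in comparisons that rest on 1 placebo library. Both fits left 1 residual degree of freedom, and the batch term took up Progesterone 1 (14 conventional and 29 plasmacytoid cells). The contrasts thus set Placebo 2 (76 and 51 cells) against Progesterone 2 (91 and 46) and Progesterone 3 (90 and 45). In conventional dendritic cells 3 of 34 members passed, beside 3.78% of 9310 genes (1.59% higher and 2.19% lower). Egr1 fell, with 158 CPM in Placebo 2 against 152, 84.6 and 73.0 in Progesterone 1, 2 and 3 (log2 ratio -0.97 ± 0.23 (SE), adjusted p = 0.0018). Egr3 fell, with 94.4 CPM in Placebo 2 against 40.4, 26.5 and 40.6 in Progesterone 1, 2 and 3 (log2 ratio -1.44 ± 0.27 (SE), adjusted p = 1.43e-05). Jun rose, with 309 CPM in Placebo 2 against 734, 544 and 395 in Progesterone 1, 2 and 3 (log2 ratio 0.62 ± 0.20 (SE), adjusted p = 0.0431). In plasmacytoid dendritic cells 4 of 32 passed, beside 1.94% of 7530 genes (0.677% higher and 1.26% lower). Egr1 stood at 116 CPM in Placebo 2 against 12.3, 46.1 and 34.3 in Progesterone 1, 2 and 3 (log2 ratio -1.45 ± 0.34 (SE), adjusted p = 0.00242). Junb stood at 503 CPM in Placebo 2 against 244, 317 and 238 in Progesterone 1, 2 and 3 (log2 ratio -0.84 ± 0.20 (SE), adjusted p = 0.00231). Both fell. Fos stood at 358 CPM in Placebo 2 against 444, 598 and 661 in Progesterone 1, 2 and 3 (log2 ratio 0.81 ± 0.19 (SE), adjusted p = 0.00299). Jun stood at 435 CPM in Placebo 2 against 679.8, 712 and 717 in Progesterone 1, 2 and 3 (log2 ratio 0.71 ± 0.18 (SE), adjusted p = 0.00956). Both rose. The heat shock lists had medians of 0.20 and -0.11. In either class no member passed with DESeq2, without the filter on low counts or without the batch term.

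Set side by side over the 8 class fits, 27 of 34 members (79.4%) passed in at least 1 class, beside 54.7% of the 17036 genes tested in 1 or more fits, and 7 passed in none (Fosb, Jund, Klf2, Hsp90aa1, Hsp90ab1, Hspb1 and Hspe1). Of the 32 members tested in all 8 fits 25 (78.1%) passed in at least 1, beside 63.2% of 5785 such genes. Egr1 was lower in 4 classes (macrophages, epithelial cells and both kinds of dendritic cell) and higher in B cells. All 4 of those fits had Placebo 2 as their only placebo library. In Progesterone 1 over Placebo 1, by single libraries, Egr1 was higher in 4 of 5 other classes compared (median log2 ratio 0.32). Jun and Atf3 were higher in 3 classes each and lower in none. Fos, Egr1, Egr3, Ier3, Nr4a1 and Socs3 passed in opposite directions in different classes. Among heat shock genes every call in these 8 fits was upward except that of Hspd1 in macrophages. These fits share libraries, so the classes are not independent of each other.

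Single pairs of libraries within a batch were compared as well, and 1 pair was of the same treatment. As the libraries of that pair may not be independent animals, it cannot show how far tumours of 1 treatment differ. Progesterone 3 over Progesterone 2, the same treatment and batch, gave a median log2 ratio of CPM + 5 of -0.49 for heat shock genes in T cells, with 1 of 11 above 0, against 0.05 over all genes; Progesterone 2 over Placebo 2 gave 0.53 with 11 of 11 above 0, and Progesterone 3 over Placebo 2 gave 0.35 with 9 of 11. Progesterone 1 over Placebo 1 gave 0.70 in T cells and 1.38 in B cells, with 11 of 11 above 0 in each, but -0.02 in natural killer cells with 5 of 11 and -0.12 in monocytes with 5 of 11. The ratios that share a library are not independent of each other.

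Over classes, few members moved 1 way in all of them, counted over genes with a mean of at least 20 CPM in every class compared (29 members in batch 2 and 30 in batch 1). Jun was higher in all 8 classes in Progesterone 2 over Placebo 2 (median 0.65) and in 6 of 7 in Progesterone 3 over Placebo 2 (median 0.15), and Jund lower in all 8 and all 7 (medians -0.29 and -0.21). Hspa8 was higher in all 8 in the first of these (median 0.17), and Klf2 lower in all 7 in the second (median -0.48). In Progesterone 1 over Placebo 1, over 5 classes, Hspa1b and Dnajb1 were higher in all 5 (medians 1.60 and 0.83). Such one-way genes made up 10.6%, 6.31% and 6.05% of all genes measured for the pairs in batch 1, Progesterone 2 and Progesterone 3. Of the members, 2 of 30 were higher in batch 1, 2 of 29 higher and 1 lower for Progesterone 2, and 2 of 29 lower for Progesterone 3. Counts this small lie near those shares. Below the limit of 20 CPM in some class, Nr4a3 was lower in all 8 and all 7 classes of the batch 2 pairs (medians -0.58 and -0.34). Nr4a2 was lower in all 8 of the first (-0.31), and Hspb1 higher in all 5 in batch 1 (1.39). No background share was counted for genes below the limit. Between Progesterone 3 and Progesterone 2 none of the 29 members moved 1 way in all 8 classes, where 4.81% of all genes did; Fos had a median of -0.41 and was lower in 5, and Klf2 a median of -0.59 and was lower in 7. Endothelial cells of Progesterone 1 (20 cells) had 1 of 22 early genes above their level in Placebo 1 (17 cells; median -1.37), with no replicate.

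**Figure D5:**
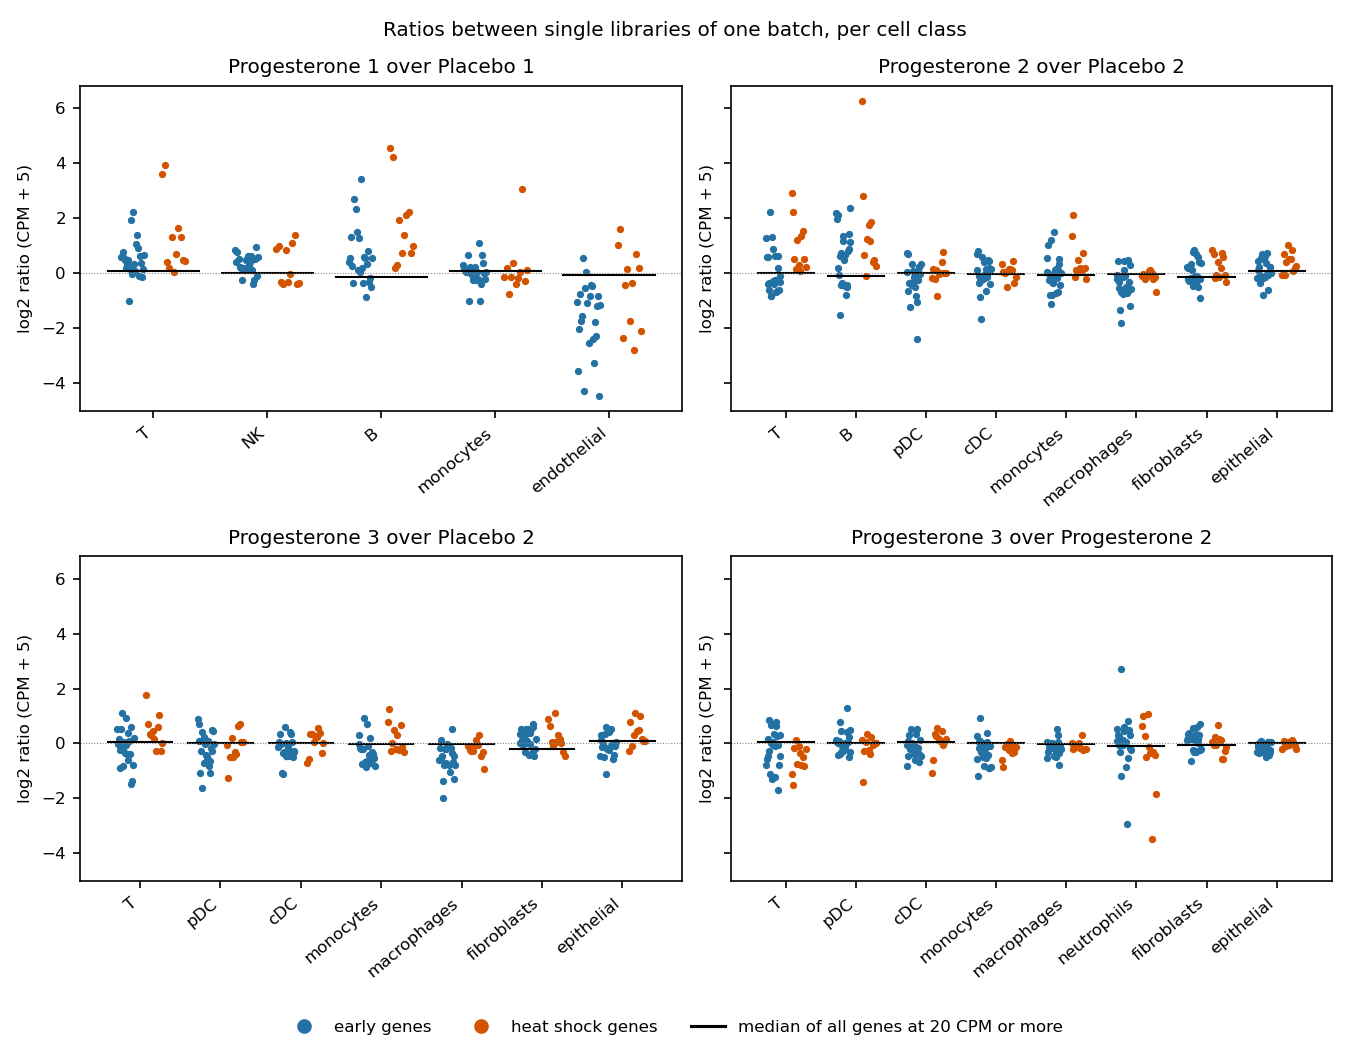
Log2 ratio of CPM + 5 between 2 single libraries of the same batch, by cell class; each dot is 1 member (blue early, orange heat shock) and the black line the median of all genes at a mean of 20 CPM or more. The top right and bottom left panels share Placebo 2, and the bottom right panel compares 2 progesterone libraries, in which heat shock genes of T cells have a median of -0.49.

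By the likeness of log2(CPM + 1) over 42 sums of class and library, out of 6877 genes, those closest to Fos were Jun (Pearson r 0.76), Ier3 (0.76), Id1 (0.76), Thbs1 (0.75) and Ltbr (0.75). Those closest to Hspa1a were Pmaip1 (0.70), Emp3 (0.70), Vim (0.69), Hexa (0.69) and Ifi27l2a (0.69), and no other heat shock gene was among them. The sums share libraries, depth and class, so these values are a description.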

How the data were processed

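Single-cell RNA was measured in 2 placebo and 3 progesterone libraries. The deposited values are raw UMI counts per gene and cell; per the file headers the authors made these counts with Cell Ranger 8.0.1; version 7.0.0 and the build mm10 are given in the submitters' processing notes. The counts held no mitochondrial genes. Cells with fewer than 250 genes and doublets called against simulated pairs of cells were removed. Cells were clustered (Python 3.11.15, leidenalg 0.10.2, 2000 variable genes without the members, 30 components, 20 neighbours, resolution 1) and named from marker lists. Naming thresholds were set after the data were seen (score of at least 0.4, gap of 0.1 to the next type, 3 markers detected, and 4 own markers among the top 10 genes for clusters whose depth is low against their library's median depth). UMIs were summed per class and library with at least 10 cells.

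Sums were tested with edgeR 4.0.16 (quasi-likelihood, TMM, low-count filter, prior count 2; R 4.3.3), with batch as a term, and p-values were adjusted over all genes of a class at 0.05. Batch numbers in the sample titles pair placebo with progesterone, and this replicate block stands in every treatment fit that held both batches. DESeq2 1.42.0, other size factors, no filter, thinned sums, other class limits and left-out libraries were alternatives. On simulated counts the T cell fit recovered 90% of 2-fold changes over 6833 genes, and the plasmacytoid dendritic cell fit 34% over 7299. In the data the T cell fit did not call Hspa1a at a log2 ratio of 3.15, so these percentages do not give the power of the real fits. Values per library are printed for members that passed with progesterone in any class or between classes, and for the 5 early and 3 heat shock genes with the highest mean level in T cells, macrophages and epithelial cells. The members and gene lists were chosen with earlier results of these data known. The labels do not say that libraries of a group came from separate animals. Intervals cover counting error only.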

Additional observations from a re-analysis of the deposited data

Results flagged for a closer look

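For 4 values the progesterone effect differed between cell classes by a test of the difference itself (edgeR's quasi-likelihood test, adjusted over all genes). In macrophages minus T cells the log2 difference was -6.25 for Egr2 (adjusted p = 0.00925), -2.34 for Hspa1a (adjusted p = 7.87e-06) and -1.48 for Hspa1b (adjusted p = 0.0294). In monocytes minus T cells it was -2.05 for Ier3 (adjusted p = 0.0256), a call kept in 7 of 13 alternatives and lost with DESeq2, with thinned sums, with members kept in clustering and without Placebo 1, Progesterone 1 or Progesterone 2. The first 3 rest on Placebo 2 as the sole placebo library, and Egr2 on 0 UMIs in its T cells.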

How the results depend on the processing

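Over all fits, 129 calls of members were recomputed in 1288 alternative values: 975 kept the call, 288 lost it and 25 reversed, and 103 of 3958 values that had not passed gained a call. The cause of these changes was not tested. Kept calls include settings without Progesterone 1 in fits whose batch term takes up that library, where the contrast stays the same. Without the replicate block (the batch term), the number of members passing with progesterone fell from 8 to 4 in B cells, from 17 to 1 in epithelial cells, and to 0 from 14 in macrophages, 3 in conventional and 4 in plasmacytoid dendritic cells; it stayed at 0 in T cells and monocytes. DESeq2 gave 3 in T cells in place of 0, 9 in macrophages, 2 in place of 5 in fibroblasts, 0 in both kinds of dendritic cell and 0 for both differences between classes, and 13 in place of 20 between batches in macrophages. No filter on low counts gave 6 in T cells, 1 in monocytes, 8 in fibroblasts, 0 in both kinds of dendritic cell, 11 and 14 between batches in T cells and monocytes, and 2 for monocytes minus T cells. Thinning sums to the lowest total gave 0 in B cells, epithelial cells and conventional dendritic cells, 0 between batches in T cells and monocytes, 0 for both differences between classes and 1 in place of 18 between macrophages and T cells. Naming shallow clusters gave 0 in macrophages, with progesterone and between batches, 1 in epithelial cells, 11 between macrophages and T cells and 1 for macrophages minus T cells. Counting monocytes with macrophages gave 0 with progesterone and 2 between batches. Members kept in clustering gave 0 for monocytes minus T cells. Batch 2 alone gave 2 in T cells. Leaving out 1 library gave 0 to 7 in T cells (7 without Placebo 2, 2 without Placebo 1 or Progesterone 1), 3 to 7 between batches in T cells, 5 to 11 between batches in monocytes and 0 to 5 for monocytes minus T cells. In classes with 4 sums, leaving out a batch 2 library, or summing Progesterone 2 and 3, could not be fitted for lack of residual degrees of freedom.

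Reversed log2 ratios were as follows. With shallow clusters named, the progesterone effect in macrophages was 0.63 for Dusp1, 0.041 for Ier3, 0.19 for Junb, 0.30 for Klf6, 0.033 for Nr4a1 and 0.38 for Zfp36, and in epithelial cells -0.27 for Atf3 and 0.30 for Fos; the batch difference in macrophages was 0.72 for Dusp1, 0.63 for Egr1, 0.51 for Fos, 0.38 for Hspa1a, 0.55 for Hspb1, 0.11 for Klf4, 0.0014 for Klf6 and 0.59 for Zfp36. With monocytes counted in, Dusp1 was 0.17 with progesterone, and Dusp1, Egr1 and Hspb1 were 0.21, 0.94 and 0.68 between batches. With thinned sums, Egr1 was 0.91 and Nr4a1 -0.44 with progesterone in epithelial cells, Klf6 was 0.30 between batches in T cells, and Btg2 and Nr4a1 were -0.75 and -2.22 in macrophages over T cells. Hspa1b was detected at 1500 UMIs in 1.89% of T cells of Placebo 1 and 36.6% of Progesterone 2, and without thinning in 6.24% of Placebo 1 and 41.7% of Progesterone 1. Hspa1a in epithelial cells was detected at 1500 UMIs in 0.170% of Progesterone 2 and 0 of 3135 cells of Progesterone 3 (upper bound of the exact interval 0.118%), and without thinning in 17.0%, 3.63%, 3.48% and 1.28% of Progesterone 1, Placebo 2, Progesterone 2 and Progesterone 3. Named shallow clusters, merged monocytes, the Ctla4 cluster alone, summed progesterone libraries, the comparison of monocytes with T cells and the clusters of macrophages were chosen after seeing the data.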
